A study of Mus musculus with 52 samples.

Results

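The natural killer (NK) cell receptor genes Ncr1, Klrb1c, Klrk1, Klrd1, Klrc1, Klre1 and Klrg1, together with the transcription factor gene Eomes, were followed in subcutaneous mouse pancreatic tumors after treatment with a STING agonist, an LTβR agonistic antibody, or both. The 8 genes were chosen by symbol from the 27525 genes of the table of 32 tumors. KPC tumor cells, a mouse pancreatic cancer line named KxPxCx in the sample labels, were grown in male C57BL/6NHsd mice of 8 to 10 weeks. The 8 untreated (control) tumors received neither agonist. The 8 ADU-S100 tumors received the cGAMP analog ADU-S100, which activates STING, once into the tumor at 2 μg on day 0. The 8 anti-LTβR tumors came from mice given the agonistic antibody 4H8 intraperitoneally at 100 μg, 4 times until day 10. The 8 combination tumors received both agents, and every tumor was resected on day 14 and sequenced individually by bulk RNA-seq. All 4 groups carried the same tumor line in mice with an intact immune system. A subcutaneous graft of a cell line is not a tumor arising in the pancreas, which limits each group as a model.

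NK cells are innate lymphocytes that read a balance of activating and inhibitory signals from target cells. NKp46 (Ncr1) and NK1.1 (Klrb1c) are activating receptors by which mouse NK cells and type 1 innate lymphoid cells are usually recognised, and NKG2D (Klrk1) is an activating receptor for stress-induced ligands of the RAET1, MULT1 and H60 families. CD94 (Klrd1) pairs with NKG2A (Klrc1) into an inhibitory receptor for the nonclassical class I molecule Qa-1, whereas Klre1 and Klrg1 encode further lectin-like receptors, the latter binding cadherins. NKG2D, CD94, NKG2A and KLRG1 are also carried by activated CD8+ T cells, and Eomes directs programs of both NK cells and CD8+ T cells. In total tumor RNA, fewer cells of a type and less RNA per cell cannot be told apart.

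Of the 8 genes, 6 lie on chromosome 6, and 5 of these (Klrb1c, Klre1, Klrd1, Klrk1 and Klrc1) lie within 900.5 kb of the NK gene complex (GRCm38, GENCODE release M21). Klrk1 is annotated at chr6:129610323-129623864 on the minus strand and Klrc1 at chr6:129666015-129678973 on the same strand, with Klrd1 at chr6:129591782-129598775 and Klre1 at chr6:129577905-129585827 on the plus strand. Klrb1c lies at chr6:128778485-128789215 on the minus strand, and 413 of its exonic bases are shared with the same-strand gene model Gm44511. Klrg1 lies apart at chr6:122270596-122282882 on the minus strand. Ncr1 lies at chr7:4337724-4345164 on the plus strand, and Eomes at chr9:118478212-118486132 on the plus strand, where 118 of its exonic bases overlap the opposite-strand model Gm33460. Whether the authors' counting used strand is not given in the sources used here, so the Eomes value could hold reads of that model.

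Promoter windows of 300 bases (250 before to 50 after the start) from RefSeq were at hand for 6 of the 8 genes. The windows of Klrk1 and Klrc1, the genes called with anti-LTβR and with both agents against untreated tumors, and of Klrb1c and Ncr1, the receptors by which NK cells are recognised, are shown 5′ to 3′ with matches to the Runx core in capitals (GRCm38.p6). The Klrk1 window is chr6:129623815-129624114, the Klrc1 window chr6:129678924-129679223, and the Klrb1c window chr6:128788592-128788891, all on the minus strand, and the first of the 2 Ncr1 windows is chr7:4337465-4337764 on the plus strand.
Klrk1: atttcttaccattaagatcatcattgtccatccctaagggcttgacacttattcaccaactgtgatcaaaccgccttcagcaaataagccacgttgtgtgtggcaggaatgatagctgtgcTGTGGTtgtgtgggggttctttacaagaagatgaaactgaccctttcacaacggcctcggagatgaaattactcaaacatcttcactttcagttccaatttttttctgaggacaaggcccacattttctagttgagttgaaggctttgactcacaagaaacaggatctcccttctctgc
Klrc1: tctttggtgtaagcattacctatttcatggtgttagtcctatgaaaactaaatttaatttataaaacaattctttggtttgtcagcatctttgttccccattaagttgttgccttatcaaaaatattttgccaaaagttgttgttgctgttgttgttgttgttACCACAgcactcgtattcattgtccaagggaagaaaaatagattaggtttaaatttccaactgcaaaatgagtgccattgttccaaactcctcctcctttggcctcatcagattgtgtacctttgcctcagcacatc
Klrb1c: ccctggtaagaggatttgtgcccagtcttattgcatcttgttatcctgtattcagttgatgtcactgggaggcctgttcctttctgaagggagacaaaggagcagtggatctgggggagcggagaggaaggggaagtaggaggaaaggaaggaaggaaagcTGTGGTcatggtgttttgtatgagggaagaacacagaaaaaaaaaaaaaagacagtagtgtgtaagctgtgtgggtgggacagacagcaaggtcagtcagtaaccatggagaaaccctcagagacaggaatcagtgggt
Ncr1: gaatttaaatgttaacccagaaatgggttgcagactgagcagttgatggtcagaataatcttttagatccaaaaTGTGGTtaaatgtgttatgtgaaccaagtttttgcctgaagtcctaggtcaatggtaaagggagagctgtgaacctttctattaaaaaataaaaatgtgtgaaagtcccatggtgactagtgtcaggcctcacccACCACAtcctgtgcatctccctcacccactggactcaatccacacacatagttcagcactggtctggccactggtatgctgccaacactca
The Runx core was searched as TGTGGT and its reverse complement ACCACA. It occurred in 6 of the 8 member windows, which overlap where a gene has 2 of them, and in 16.8% of all 32851 windows. The T-box core, searched as GGTGTG and CACACC, occurred in 0 of the 8 member windows and in 19.0% of all windows. The motifs share the letters GTG and can overlap. A match is a description of the letters only.

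The 32 libraries held between 12762453 and 15591986 reads, as recovered from the deposited normalized counts, and 7 of them (2 ADU-S100, 2 anti-LTβR, 2 combination and 1 untreated) lay at or under 14000000. No 2 libraries were identical. The labels give all 32 tumors the same code and tie no tumor to a mouse. The study describes these tumors both as a single experiment and as independent experiments combined. All values below are normalized read counts, that is, estimated reads divided by the library's size factor. All 8 genes passed the filter on low values, a mean of at least 5 normalized counts over the 32 tumors, with 18743 genes of the table. Differences are on the scale of log2(normalized count + 1), which understates changes of low genes, and were tested with limma across all 18743 genes. A gene was called where its Benjamini-Hochberg adjusted p was under 0.05.

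Ncr1 and Klrb1c, the genes that define NK cells in this list, were detected in every tumor, with lowest values of 6.68 and 25.5 normalized counts. The 8 genes were unequally abundant once set against exon length. In untreated tumors the mean level per kilobase of annotated exon was 84.9 ± 23.0 normalized counts for Klrd1 and 53.4 ± 15.7 for Klrc1 (SD, n = 8), the pair that forms the CD94/NKG2A receptor. Klrk1 followed at 22.0 ± 3.91, Klrb1c at 16.2 ± 4.25 and Ncr1 at 13.4 ± 1.74 on the same scale. Klre1 (11.8 ± 3.86), Klrg1 (9.83 ± 4.90) and Eomes (9.76 ± 3.65) were the lowest. Neighbours in this order overlapped within 1 SD of their means, except Klrc1 and Klrk1. The read support was correspondingly thin for Klrg1, with 5 to 27 reads in untreated libraries, and for Ncr1, with 17 to 25, against 120 to 218 for Klrk1. The counting error is therefore a larger share of the values of Klrg1 and Ncr1 than of Klrk1.

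**Figure D1:**
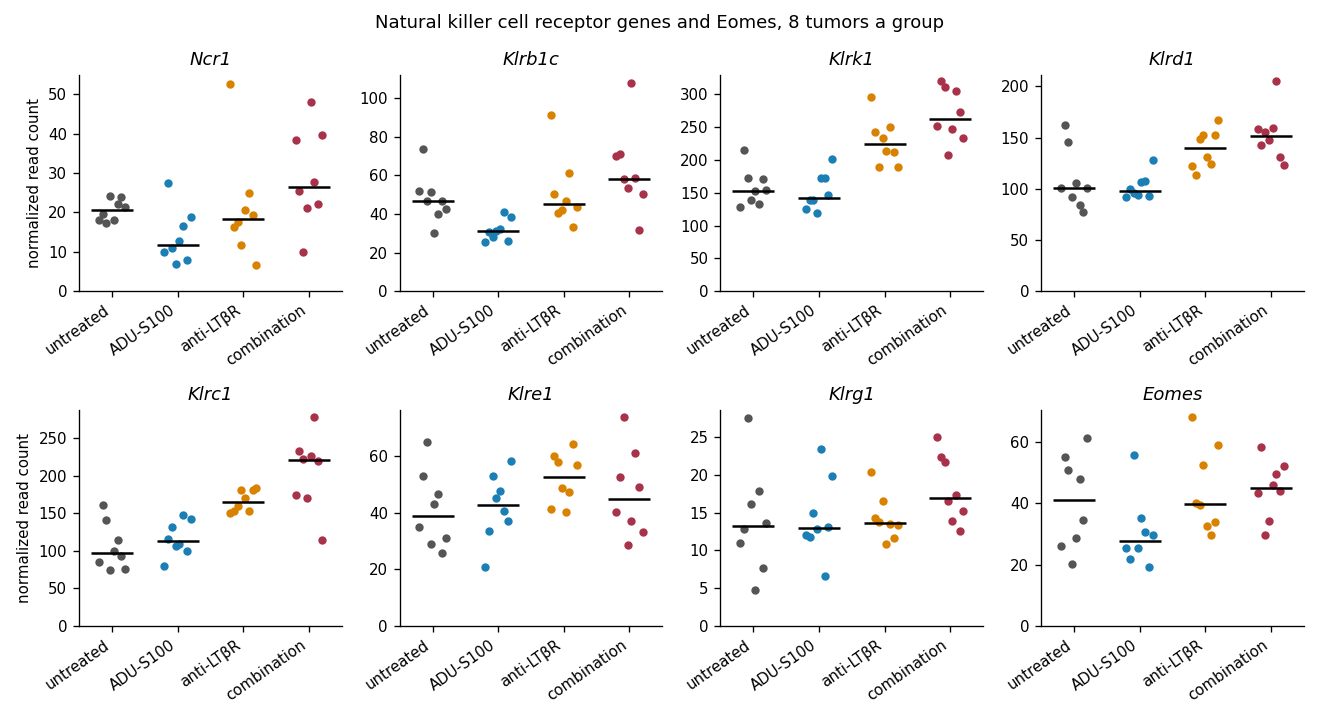
Normalized read count of each of the 8 genes (vertical axes, linear from 0, a separate scale per gene) in the 8 tumors of each treatment group (points), with the group median as a bar. Klrk1 and Klrc1 sit higher in most anti-LTβR and combination tumors than in untreated tumors, whereas Ncr1 spreads widely in every treated group and lies between 17.3 and 24.1 in untreated tumors.

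To ask which receptor genes changed under both agonists, combination tumors were compared with untreated tumors. Transcripts of NKG2D, NKG2A and CD94 rose, and those of the other 5 genes did not pass the test. The number called higher was 3 of 8, where 18.6% of all tested genes were called higher. The median difference over the 8 genes was 0.41, beside −0.004 over all 18743 genes, and all 8 differences were above 0. At the study's stricter limit, an adjusted p under 0.05 with a change of at least 2-fold, 0 of the 8 passed, against 5.43% of all genes higher.

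Klrc1, the inhibitory partner of CD94, showed the greatest difference of the 8 genes. Its normalized count ran from 74.9 through a median of 96.8 to 161 in untreated tumors and from 114 through 221 to 278 in combination tumors. Of the 8 combination tumors, 7 lay above every untreated tumor, and only tumor 8 (114) fell within the untreated range. The difference was 0.95 ± 0.187 (SE) on the log2 scale, a ratio of means of 1.93, with an adjusted p of 0.000812 in limma. Reads of Klrc1 and its close copies Klrc2 and Klrc3 may have been split by the counting, so the Klrc1 value is uncertain to that extent.

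Klrk1, the activating receptor NKG2D, was higher with less scatter. Untreated tumors ran from 128 through a median of 153 to 215 normalized counts, and combination tumors from 208 through 263 to 320. The groups overlapped through 1 combination tumor (208) and 1 untreated tumor (215). The log2 difference was 0.77 ± 0.113 (SE), a ratio of means of 1.70 (limma adjusted p = 9.2e-05).

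Klrd1, the common CD94 chain, ran from 77.5 through 101 to 162 normalized counts in untreated tumors and from 123 through 152 to 205 in combination tumors. The groups overlapped broadly, because untreated tumors 2 and 3 reached 162 and 146, and 1 combination tumor lay above all untreated tumors. The log2 difference was 0.51 ± 0.145 (SE) with a limma adjusted p of 0.00978. Among only the 25 libraries above 14000000 reads it was 0.38 with a limma adjusted p of 0.0732, no longer past the threshold. That was the highest of 8 alternatives that ran from 0.00101. Here and below, such counts of alternatives leave out scaling to a marker.

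The NK cell identity receptors were not called. Ncr1 ran from 17.3 through 20.6 to 24.1 normalized counts in untreated tumors and from 9.85 through 26.5 to 48.1 in combination tumors, so the combination values fell on both sides of the untreated range, with 5 tumors above it and 1 below. The log2 difference was 0.36 ± 0.247 (SE; limma adjusted p = 0.259). Without combination tumor 3, whose value was 9.85, the difference became 0.55 with an adjusted p of 0.0283.

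Klrb1c, encoding NK1.1, ran from 30.1 through 46.6 to 73.9 normalized counts in untreated and from 31.8 through 58.4 to 108 in combination tumors. The ranges overlapped almost wholly, and the log2 difference of 0.35 (95% confidence interval −0.09 to 0.79) did not pass the test (limma adjusted p = 0.198).

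The remaining receptors and the transcription factor were likewise not called. Klrg1, an inhibitory receptor of mature NK cells and effector T cells, ran from 4.77 through 13.2 to 27.5 normalized counts in untreated and from 12.5 through 17.0 to 25.0 in combination tumors. Klre1 ran from 25.8 through 39.0 to 65.1 in untreated and from 28.6 through 44.8 to 73.9 in combination tumors. Eomes ran from 20.1 through 41.1 to 61.3 in untreated and from 29.5 through 44.9 to 58.5 in combination tumors. For each of these 3 genes the ranges overlapped, and the log2 differences were 0.46, 0.19 and 0.20 in that order. Their 95% confidence intervals were −0.12 to 1.04 for Klrg1, −0.27 to 0.65 for Klre1 and −0.27 to 0.67 for Eomes, so differences of such sizes could not be told from no difference with 8 tumors a group.

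Anti-LTβR alone was next compared with the same untreated tumors. NKG2A and NKG2D transcripts rose, so 2 of the 8 genes were called higher where 6.29% of all tested genes were. Relative to Ptprc or to T cell markers neither was called, as given below. Klrc1 ran from 149.9 through 165 to 184 normalized counts in anti-LTβR tumors, and its scatter was the smallest of the 4 groups (SD 14.3, n = 8, against 31.1 in untreated tumors). Of the 8 tumors, 4 lay above the untreated maximum of 161. The log2 difference was 0.69 ± 0.142 (SE; limma adjusted p = 0.00704).

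Klrk1 ran from 189 through 224 to 296 normalized counts in anti-LTβR tumors, again with 4 of 8 tumors above every untreated tumor, a log2 difference of 0.53 ± 0.111 (SE; limma adjusted p = 0.00812). Klrd1 ran from 113 through 139.8 to 167, a log2 difference of 0.38 ± 0.141 that missed the threshold (adjusted p = 0.0788). Without untreated tumor 2 or tumor 3, the highest Klrd1 values of that group, the adjusted p was 0.0266 or 0.0395, with differences of 0.47 and 0.45. Differences of the other 5 genes lay between −0.16 for Ncr1 and 0.38 for Klre1.

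Ncr1 in the anti-LTβR group held both a very high and a very low tumor. It ran from 6.68 through 18.4 to 52.7 normalized counts, where the highest was tumor 1 and the lowest tumor 8. The group mean was 21.2 ± 13.9 (SD, n = 8), against 20.6 ± 2.69 in untreated tumors, so the means were close while the SDs were not. The untreated values rested on 17 to 25 reads a library, where counting error is large. A difference in spread between the groups was not tested. The log2 difference was −0.16 (95% confidence interval −0.75 to 0.44), and its sign turned to 0.04 in edgeR on the recovered reads (adjusted p 0.725 to 0.949 over 8 alternatives).

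ADU-S100 alone was compared with untreated tumors to see the effect of the single injection after 14 days. None of the 8 genes was called, and 0.0% of all genes were called in either direction by limma, although 2597 of the 18743 genes, and 2 of the 8, had an unadjusted p under 0.05. On the recovered reads edgeR also called 0 of the 8, and 1 gene in all. DESeq2 called 57 genes there but gave none of the 8 an adjusted p. The 2 genes were the NK identity receptors Ncr1 and Klrb1c. Ncr1 ran from 6.87 through 11.8 to 27.6 normalized counts in ADU-S100 tumors, with 6 of 8 tumors below every untreated tumor and 1, tumor 2 (27.6), above them all. Its log2 difference was −0.65 (95% confidence interval −1.14 to −0.15), with a limma adjusted p of 0.306.

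Klrb1c ran from 25.5 through 30.9 to 40.8 normalized counts in ADU-S100 tumors, the tightest of its 4 groups. Of these tumors, 3 lay below every untreated tumor. Its log2 difference was −0.56 (95% confidence interval −0.90 to −0.22; limma adjusted p = 0.29). Eomes ran from 19.1 through 27.6 to 55.9, a difference of −0.38, and the other 5 genes differed by −0.06 to 0.16.

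**Figure D2:**
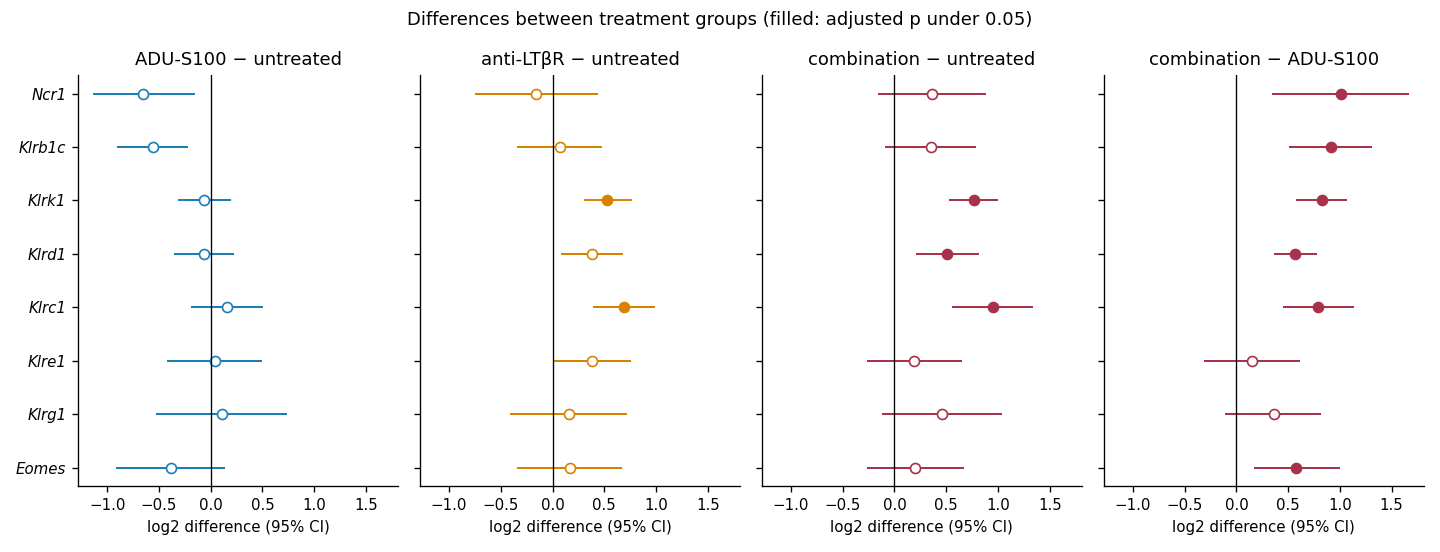
Log2 difference with its 95% confidence interval (horizontal axis) for each of the 8 genes in 4 comparisons, with filled points where the limma adjusted p was under 0.05. In ADU-S100 against untreated tumors no gene is filled and Ncr1 and Klrb1c lie lowest, at −0.65 and −0.56. In combination against ADU-S100 tumors the same 2 genes lie highest, at 1.01 and 0.91. The comparisons against untreated tumors share those tumors, and the comparisons that hold ADU-S100 tumors share the ADU-S100 tumors.

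Combination tumors were then set against each single agent. Against ADU-S100 tumors, 6 of the 8 genes were called higher, where 19.0% of all tested genes were, with a median difference of 0.69. Relative to Ptprc or to T cell markers fewer of them were called higher, as given below. This comparison and that of ADU-S100 with untreated tumors share the ADU-S100 tumors, so low values there enter both. With at least 2-fold in addition, 1 gene, Ncr1, passed, against 5.78% of all genes higher.

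Ncr1 averaged 29.1 normalized counts with both agents and 13.9 with ADU-S100 alone, a log2 difference of 1.01 ± 0.313 (SE; limma adjusted p = 0.0159). The ranges overlapped, with 4 of 8 combination tumors above every ADU-S100 tumor. Among the libraries above 14000000 reads the difference was 0.86 with an adjusted p of 0.0907, the highest of 8 alternatives that ran from 0.00519.

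Klrb1c was 0.91 ± 0.191 (SE) higher in combination tumors, and 7 of the 8 lay above every ADU-S100 tumor (limma adjusted p = 0.00115). Klrk1 was 0.83 ± 0.116 higher, and its groups did not overlap, since the lowest combination tumor (208) exceeded the highest ADU-S100 tumor (202). Klrc1 differed by 0.79 ± 0.164 and Klrd1 by 0.57 ± 0.099, each with 7 of 8 combination tumors above the ADU-S100 range. Eomes differed by 0.58 ± 0.196 with 1 such tumor, and its adjusted p of 0.0244 became 0.0506 without ADU-S100 tumor 2 and 0.122 among the libraries above 14000000 reads, over 8 alternatives that ran from 0.0224. Klre1 (0.15) and Klrg1 (0.36) were not called.

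Against anti-LTβR tumors, 0 of the 8 genes were called in combination tumors, where 23.8% of all genes were called in either direction, although 1 of the 8, Klrk1, had an unadjusted p under 0.05. DESeq2 and edgeR also called 0 of the 8. Klrk1 was 0.23 higher (95% confidence interval 0.01 to 0.46) and Klrc1 0.26 higher (−0.03 to 0.55). Without anti-LTβR tumor 1 Klrk1 reached an adjusted p of 0.0455 with a difference of 0.29, and without combination tumor 8 Klrc1 reached 0.012 with 0.37. For these 2 genes the order of the group means was combination, anti-LTβR and then the other two, and the upper neighbours in that order did not differ past the threshold.

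Between the single agents, anti-LTβR tumors were higher than ADU-S100 tumors for Klrk1 (0.59 ± 0.114), Klrc1 (0.53 ± 0.110), Klrd1 (0.44 ± 0.094) and Klrb1c (0.63 ± 0.176), 4 of 8 genes, where 3.0% of all tested genes were called higher. The Klrc1 groups did not overlap, at 80.0 to 148 normalized counts with ADU-S100 and 149.9 to 184 with anti-LTβR. The Klrb1c call, with a limma adjusted p of 0.0461, was lost when any of 12 of the 16 tumors was left out in turn, the adjusted p then lying between 0.0537 and 0.093. The Klrc1 call was lost in a joint fit of all 4 groups (limma adjusted p = 0.0574), and the Klrd1 call among the libraries above 14000000 reads (adjusted p = 0.0547).

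Whether the effect of ADU-S100 depended on the antibody was tested as the interaction of the 2 agents over all 32 tumors. For 1 of the 8 genes, Klrb1c, the interaction passed the test and was positive, as it was for 7.07% of all genes. The difference of ADU-S100 from untreated tumors was −0.56, that of combination from anti-LTβR tumors was 0.28, and the difference between these differences was 0.84 ± 0.275 (SE; limma adjusted p = 0.033). Among the 25 libraries above 14000000 reads it was 0.71 with an adjusted p of 0.149, the highest of 7 alternatives that ran from 0.0182. For Ncr1 the interaction was 1.16 ± 0.429 with an adjusted p of 0.0585. The interactions of the other 6 genes lay between −0.23 for Klre1 and 0.41 for Eomes, and those of Klrk1, Klrd1 and Klrc1 were 0.29, 0.19 and 0.10.

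Markers of other cells moved with these genes. In combination against untreated tumors, 10 of 10 T cell marker genes were called higher, beside 18.6% of all genes, and 0 of them was listed at 0 in any library. Their summed normalized count ran from 795 to 1907 in untreated, 960.2 to 1565 in ADU-S100, 1394 to 2225 in anti-LTβR and 1603 to 2942 in combination tumors. Cd3e, a chain of the T cell receptor complex, rose by 1.01 and Cd8a, the co-receptor of cytotoxic T cells, by 0.89. Ptprc, encoding the leukocyte antigen CD45, rose by 0.59, from 1309.7 to 1861 normalized counts in untreated tumors to 2007 to 2952 in combination tumors without overlap.

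Of the epithelial markers that mark the tumor cells, 3 of 4 were lower in combination tumors, beside 21.3% of all genes. The other, Epcam, differed by 0.56 in the opposite direction and was not called. Their summed count was 15330.3 to 28517 in untreated and 6703 to 13991 in combination tumors. Of the macrophage markers 3 of 4 and of the B cell markers 3 of 4 were higher, beside 18.6% of all genes. Summed macrophage markers ran from 6219.8 to 10857 in untreated, 6531 to 8319 in ADU-S100, 8107 to 10071 in anti-LTβR and 9016 to 13657 in combination tumors. Summed B cell markers ran from 70.7 to 246, 44.5 to 184, 105 to 503 and 141 to 705 in the same order, and none of these markers was at 0 in any library. The part of these cell populations in the differences of the 8 genes was not tested.

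The 8 genes were set against 2 such references within each tumor. Relative to Ptprc, 0 of the 8 genes was called in combination against untreated tumors, where 67.0% of all genes were called in either direction. The Klrc1 difference shrank from 0.95 to 0.36, with an unadjusted p under 0.05 (limma adjusted p = 0.0518). The median over all genes moved from −0.004 to −0.592. Relative to the mean of the T cell markers, 3 of the 8 genes were called lower, namely Klre1 (−0.73, limma adjusted p = 0.000622), Eomes (−0.72, adjusted p = 0.00875) and Klrd1 (−0.41, adjusted p = 0.0292). On that scale 72.7% of all genes were called lower and the median over all genes was −0.924, so each of the 3 was less negative than the median gene. Klrc1 and Klrk1 lay at 0.03 and −0.15, and neither was called on that scale.

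**Figure D3:**
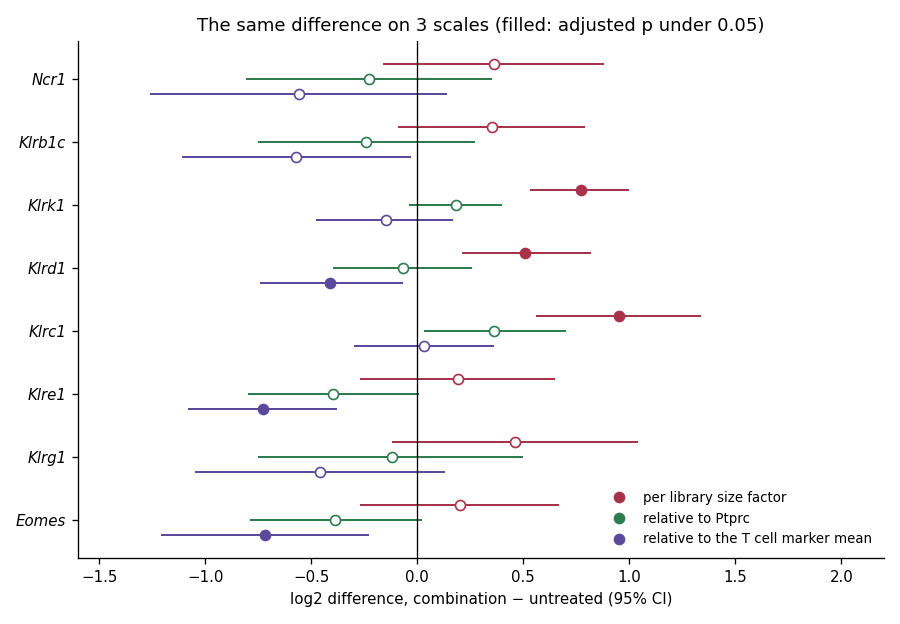
Log2 difference between combination and untreated tumors with its 95% confidence interval (horizontal axis) for each of the 8 genes on 3 scales, normalized counts, values relative to Ptprc and values relative to the T cell marker mean, with filled points where the limma adjusted p was under 0.05. All 8 genes lie above 0 on the first scale, 2 on the second and 1 on the third.

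Tumors of one group differed in their T cell markers too, which allowed the genes to be followed apart from treatment. Values were taken on the log2 scale as deviations from the group means over the 32 tumors, and p-values came from a permutation test within groups with 100000 resamples, adjusted over 15 relations. Klre1 went with the T cell marker mean (Pearson r = 0.84, Spearman rho = 0.79, adjusted p = 0.00015 and 7.5e-05), and so did Klrc1 (r = 0.73, rho = 0.78, adjusted p = 0.00015 and 7.5e-05). The unadjusted p for Klre1, 1e-05, is the smallest that these permutations can give. Klrd1 followed with r = 0.62 and rho = 0.55 (permutation adjusted p = 0.0067 and 0.0143). Without the 2 tumors farthest from the median of the marker mean, r was 0.80, 0.73 and 0.48 for the 3 genes.

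For Ncr1 and Klrb1c no relation with the T cell markers passed the threshold. Against the T cell marker mean Ncr1 had r = −0.34 and rho = −0.32 (permutation adjusted p = 0.106 and 0.193), and Klrb1c had r = −0.06 and rho = −0.02 (permutation adjusted p = 0.82 and 0.905). The 2 identity receptors went with each other, at r = 0.48 and rho = 0.47 (permutation adjusted p = 0.047 and 0.0419), and r was 0.40 without the 2 tumors farthest from the median of Ncr1. Klrk1, Klrg1 and Eomes had r of 0.31, 0.30 and 0.35 with the T cell marker mean, none past the adjusted threshold. Within single groups of 8 tumors r ran from 0.64 to 0.93 for Klre1, from 0.67 to 0.76 for Klrc1, and from −0.71 to 0.14 for Ncr1.

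**Figure D4:**
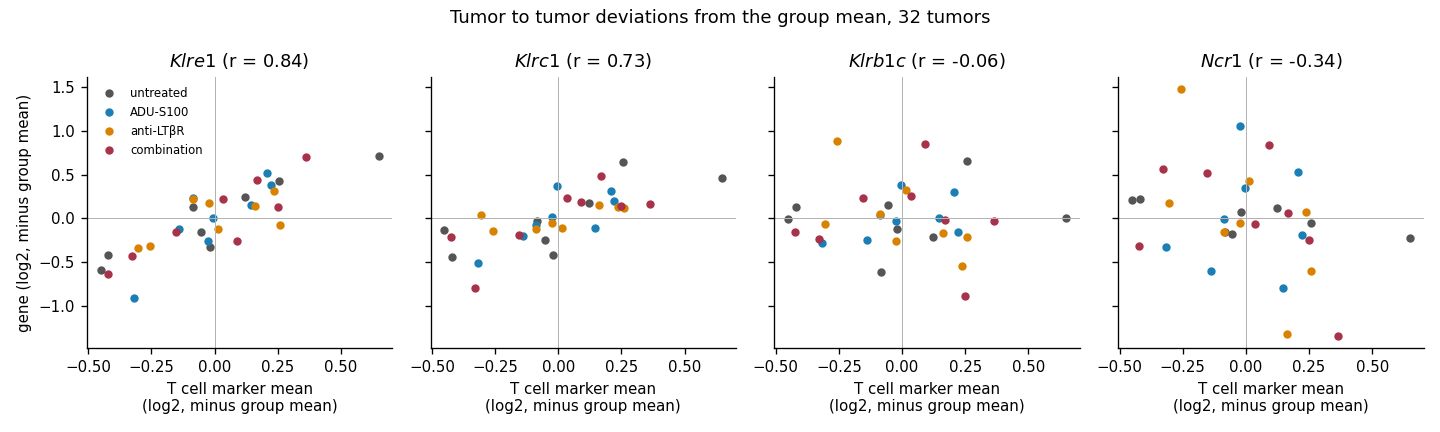
Deviation of Klre1, Klrc1, Klrb1c and Ncr1 from the group mean (vertical axis, log2) against that of the T cell marker mean (horizontal axis, log2) in 32 tumors, colored by group. Klre1 (r = 0.84) and Klrc1 (r = 0.73) climb with the markers, whereas Klrb1c (r = −0.06) and Ncr1 (r = −0.34) show no relation past the threshold.

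Among the 18742 other genes, those whose deviations were most like those of Ncr1 over the 32 tumors were Samd3 (r = 0.76), Asphd2 (r = 0.72), Stfa2l1 (r = 0.72), C430002N11Rik (r = 0.71) and Tmem200b (r = 0.70). All 5 were low, with means of 6.8 to 26.4 normalized counts, and the r are given as a description. Klrb1c stood at position 224 in that order and Klrk1 at 2706, whereas Klre1 stood at 17088.

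The rest of the NK receptor families and related lists were examined next, against the background that in combination tumors 18.6% of all tested genes were called higher and 21.3% lower. Of the other killer cell lectin-like receptors outside the Ly49 family, 7 of 9 were tested and 2 rose in combination tumors, Klri2 (0.54, limma adjusted p = 0.0157), which pairs with Klre1, and Klrc2 (0.47, adjusted p = 0.0374), a near copy of Klrc1. The median over the 7 was 0.46. Of the 9 tested Ly49 genes, 0 rose and 2 fell, Klra4 by 0.89 and Klra6 by 0.59, with a median of 0.03 over the 9, and 2 of 9 lower is near the 21.3% of all genes.

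Klra4, encoding Ly49D, an activating receptor, ran from 971 through 1221 to 1707 normalized counts in untreated and from 519 through 684 to 826 in combination tumors without overlap. Its untreated mean was 1251, beside 20.6 for Ncr1 and 47.9 for Klrb1c, and which cells it came from was not tested. Its values dominated the summed Ly49 count of 1448 to 2169 in untreated tumors and of 1147 to 1354 in combination tumors. Near-identical Ly49 copies may have exchanged reads, so single members are uncertain.

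Most genes for adaptors and proximal signalling proteins of these receptors rose, Syk (0.64) and Vav1 (0.53) among them. Of 13 tested, 11 were higher in combination tumors and 0 lower, with a median of 0.44. Tyrobp, encoding DAP12, ran from 842 to 1430.3 normalized counts in untreated and from 1191 to 1844 in combination tumors (0.44, limma adjusted p = 0.00828). Hcst, encoding the NKG2D adaptor DAP10, ran from 16.2 to 39.4 and from 28.6 to 81.1 (0.93, adjusted p = 0.00214). Macrophages also carry DAP12 and T cells carry Lat and CD247, which rose by 1.03 and 0.85.

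Of 8 tested ligands of the receptors, 4 were higher and 2 lower in combination tumors, the latter near the background share of 21.3%. Ulbp1, encoding the NKG2D ligand MULT1, rose from 115 to 212 normalized counts in untreated tumors to 244 to 354 in combination tumors without overlap (0.99, limma adjusted p = 3.03e-05). Raet1e, another NKG2D ligand gene, fell by 0.65, from 237 to 339.6 normalized counts to 168 to 200.5, also without overlap (adjusted p = 1.7e-05). Raet1d rose by 0.97. H2-T23, encoding the CD94/NKG2A ligand Qa-1, rose by 0.36, and Cdh2, encoding N-cadherin, a ligand of KLRG1, fell by 0.93.

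Of 12 transcription factors of NK cells and related innate lymphocytes, 4 were higher and 1 lower in combination tumors, beside 18.6% and 21.3% of all genes. Tbx21, encoding T-bet, the relative of Eomes shared by NK and TH1 cells, ran from 35.1 through 48.3 to 68.9 normalized counts in untreated and from 58.1 through 106 to 130 in combination tumors (1.00, limma adjusted p = 0.000454), beside 0.20 for Eomes. Irf8 rose by 0.64 and Prdm1 by 0.56, and Nfil3, required for NK cell development, fell by 0.57. All 4 of these factors act in other leukocytes or tissues as well.

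Effector genes and cytokine receptors followed in the same comparison. Of 14 effectors, 7 were higher and 0 lower, among them Ccl5 (1.80), Ifng (1.34), the death ligand Tnfsf10 (0.98) and Fasl (0.86). Of 12 tested cytokines acting on NK cells and their receptors, 8 were higher and 0 lower, among them the shared chain Il2rg (0.92), Il18r1 (1.00), Il15ra (0.72) and Il21r (0.67). Il15 itself, the survival cytokine of NK cells, rose by 0.36 and its receptor chain Il2rb by 0.57. Of 18 other surface receptors of NK cells and innate lymphoid cells, 12 were higher and 0 lower, among them Cxcr3 (1.26), Itga1 (0.81), Slamf7 (1.36) and Cxcr6 (1.07). In ADU-S100 against untreated tumors, 0 genes of any of these lists were called, where 0.0% of all tested genes were.

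**Figure D5:**
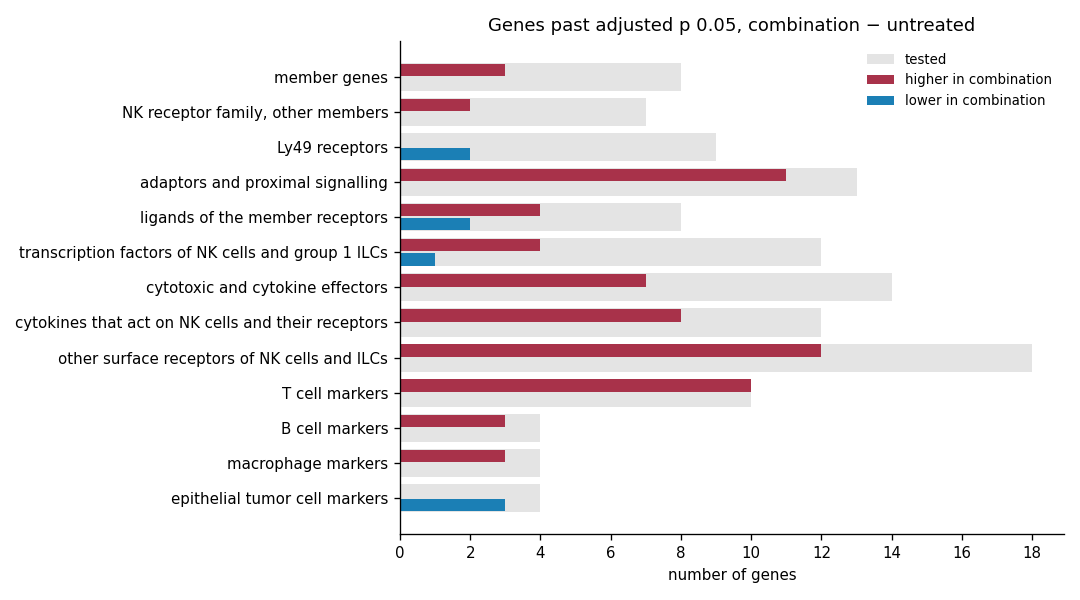
Number of genes tested (grey) and called higher (red) or lower (blue) at an adjusted p under 0.05 in combination against untreated tumors (horizontal axis), for the 8 genes and each related list. Of the adaptor and signalling genes 11 of 13 and of the T cell markers 10 of 10 were higher, beside 3 of the 8 genes and 18.6% of all tested genes.

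The interaction of the agents was positive and called for 4 of the 13 adaptor and signalling genes, Tyrobp (0.44) and Lat (0.59) among them, beside 7.07% of all genes. So it was for 2 of the 12 cytokine genes, Il15ra (0.81) and Il18r1 (0.71), and 2 of the 18 other surface receptors, Cxcr3 (1.02) and Itga1 (0.68). The same held for 2 of the 10 T cell markers, Cd4 (0.88) among them, 1 of the 4 macrophage markers and 1 of the 8 ligands. The interaction was negative and called for Klra4 (−0.47) among 9 Ly49 genes and for Raet1e (−0.46) among 8 ligands, beside 10.3% of all genes. Anti-LTβR alone raised 2 of the 13 adaptor and signalling genes, 4 of the 14 effectors, 5 of the 12 cytokine genes and 4 of the 10 T cell markers. Of all genes, 6.29% were called higher there. Combination tumors had 11, 7, 8 and 10 against the same untreated tumors, beside 18.6% of all genes called higher. Whether these counts differ was not tested.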

How the data were processed

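Total RNA of individual KPC tumors was sequenced as stranded poly(A) libraries. Per the labels and the study's methods, reads were trimmed with cutadapt 1.9, aligned (HISAT2 for mouse tumors) and quantified per gene with StringTie, and DESeq2 was used by the authors. The build mm39 is from the labels, whereas the study's methods name an Ensembl mouse genome release without naming mm39. The deposited values are normalized counts, a signal equal to the estimated reads divided by 1 size factor per library, handled in Partek. They were not raw counts, so log2(value + 1) was tested with limma 3.58.1 (R 4.3.3), each pair of groups with its own 16 libraries and the interaction with all 32, after a filter at a mean of 5. As an added alternative, whole reads were recovered from the steps of the values (100% of values up to 200 reads lay within 0.1 of a whole number) and tested with edgeR 4.0.16 and DESeq2 1.42.0, which called 6948 and 7238 genes in combination against untreated tumors where limma called 7484. The fits were also run on simulated data, whose outcome is not given here. A further deposited table holds 52 libraries, 20 of them under another code in the labels. Of these, 15 have conflicting labels and stayed in no comparison, and the other 5 have no untreated group of their own here. A deposited list of the authors' gene set enrichment scores was not used. Deposited gene positions (mm39) were not used, and positions are from GENCODE M21 on GRCm38. The level per kilobase divides by the union of annotated exons.

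The 8 genes and all lists were chosen with earlier results of these data known. Named in each list were at most 4 called genes with the smallest p in combination against untreated tumors (or the 2 highest by mean), and always Tbx21, Cd3e, Cd8a, Ptprc, Tyrobp, Hcst, Il15, H2-T23 and Il2rb. Alternatives were other tools, pseudocount 0.5, no filter, filterByExpr at a minimum of 10, a joint fit, a replicate block, libraries above 14000000 reads, each library left out, and scaling to Ptprc or T cell markers. Confidence intervals are for the difference between group means and were computed from the spread between these tumors. Tumors, not mice, are the unit of replication, and no label ties a tumor to a mouse, so p-values measure the spread between tumors, some of which may share one. All 32 tumors carry the same code in the labels, which gives no batches among them.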

Additional observations from a re-analysis of the deposited data

Results flagged for a closer look

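In 32 groups of 8 tumors checked, 4 held a tumor far from the rest, where chance gives about 1 in 20. Ncr1 in anti-LTβR tumor 1 was 52.7 normalized counts, the next being 25.0. Klrd1 in ADU-S100 tumor 8 was 128, the next being 108. Klrd1 in combination tumor 6 was 205, the next being 159. Eomes in ADU-S100 tumor 3 was 55.9, the next being 35.1.

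For Klrb1c the effect of ADU-S100 differed with and without anti-LTβR by 0.84 on the log2 scale in limma's interaction test (adjusted p = 0.033).

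The second experiment was in no comparison, and all 8 genes had more than 3 reads in its libraries, except Ncr1 in 1 of the 15 libraries with conflicting labels. Over these 15, the median normalized count was 31.6 for Ncr1, 84.6 for Klrb1c, 373 for Klrk1, 226 for Klrd1, 247 for Klrc1, 56.7 for Klre1, 42.1 for Klrg1 and 43.0 for Eomes.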

How the results depend on the processing

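Apart from scaling to a marker, 411 of 432 recomputed member differences kept their direction and side of the threshold, 11 lost the call, 1 gained it and 9 turned in sign. DESeq2 gave none of the 8 an adjusted p in ADU-S100 against untreated tumors, so it has no entry there. The signs turned for differences near 0, namely Ncr1 in anti-LTβR against untreated tumors (0.04 with edgeR and with DESeq2, 0.05 with the libraries above 14000000 reads), Klrg1 in anti-LTβR against ADU-S100 tumors (−0.01, −0.01 and −0.06), and, with those libraries alone, Klre1 in combination against ADU-S100 tumors (−0.03) and the interactions of Klrc1 (−0.03) and Klrg1 (−0.06). With those libraries alone, which are fewer, the interaction was called for 0 and anti-LTβR against ADU-S100 for 2 of the 8 genes, and the joint fit of all groups also called 2 in the latter (the cause was not tested). Over all genes, ADU-S100 against untreated tumors had 0 calls, and 57 with DESeq2, 1 with edgeR, 3 in the joint fit and 7 with those libraries. With those libraries the calls fell from 2499 to 1447 in anti-LTβR against untreated tumors, from 4466 to 1320 in combination against anti-LTβR and from 3256 to 1560 for the interaction. In anti-LTβR against ADU-S100 tumors they moved from 1059 to 490 in the joint fit and to 1692 with DESeq2. Requiring 2-fold as well left 0 genes in combination, 0 in anti-LTβR against untreated tumors, 0 in anti-LTβR against ADU-S100 and 1 in combination against ADU-S100 tumors. Leaving out each library gave 3 to 4 called genes in combination and 2 to 3 in anti-LTβR against untreated tumors, 5 to 6 in combination and 3 to 4 in anti-LTβR against ADU-S100 tumors, 0 to 1 in combination against anti-LTβR, and 0 to 0 in ADU-S100 against untreated tumors.

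Scaling to a marker, chosen after seeing the data for combination against ADU-S100 and the interaction, measures another quantity. It called 12567 (Ptprc) and 13871 (T cell markers) of all genes in combination and 9470 and 11807 in anti-LTβR against untreated tumors, 11565 and 13867 in combination against ADU-S100 tumors, and 801 and 59 for the interaction, of 18743 tested. Among the 8, it called 0 genes relative to Ptprc in combination and 0 in anti-LTβR against untreated tumors, 2 (Klrk1 and Klrc1) in combination against ADU-S100 tumors and 0 for the interaction. Relative to T cell markers, 3 were called lower in combination and 0 in anti-LTβR against untreated tumors, 1 (Klre1, lower) in combination against ADU-S100 tumors and 0 for the interaction. Relative to Ptprc the sign turned in combination against untreated tumors for Ncr1 (−0.23), Klrb1c (−0.24), Klrd1 (−0.07), Klre1 (−0.40), Klrg1 (−0.12) and Eomes (−0.39), in anti-LTβR against untreated tumors for Klrb1c (−0.30), Klrg1 (−0.21) and Eomes (−0.20), and in combination against ADU-S100 tumors for Klre1 (−0.30) and Klrg1 (−0.09). Relative to T cell markers it turned in combination against untreated tumors for Ncr1 (−0.56), Klrb1c (−0.57), Klrk1 (−0.15), Klrd1 (−0.41), Klre1 (−0.73), Klrg1 (−0.46) and Eomes (−0.72), in anti-LTβR against untreated tumors for Klrb1c (−0.51), Klrk1 (−0.04), Klrd1 (−0.19), Klre1 (−0.20), Klrg1 (−0.42) and Eomes (−0.41), in combination against ADU-S100 tumors for Klrd1 (−0.24), Klrc1 (−0.01), Klre1 (−0.66), Klrg1 (−0.45) and Eomes (−0.23), and in the interaction for Klrd1 (−0.04), Klrc1 (−0.13) and Klrg1 (−0.04).

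The mean correlation of same-numbered deviations was −0.081 to 0.172 over the comparisons, and in none were all 8 pairs over 0.1. It was 0.158 in ADU-S100 against untreated and 0.172 in combination against anti-LTβR tumors, where other pairs averaged −0.024 and −0.025. In the remaining comparisons it was negative. This check cannot exclude pairing by replicate number, and the main tests assumed none. At most 3 of 8 tumors correlated best with their own number. With the replicate number as a block, 3 genes were called in combination and 2 in anti-LTβR against untreated tumors, 5 in combination and 3 in anti-LTβR against ADU-S100 tumors, and 1 for the interaction. Over all genes the block moved the calls to 397 in anti-LTβR against ADU-S100, to 1548 in anti-LTβR against untreated and to 2 in ADU-S100 against untreated tumors. Low reads limit Klrg1 and Ncr1 most, at 5 to 27 reads a library for Klrg1 in untreated tumors and 6 to 55 for Ncr1 in anti-LTβR tumors.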

Other observations

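In the 15 libraries of the second experiment whose labels disagree on the treatment, Ncr1 ran from 1.89 to 78.7 normalized counts, Klrb1c from 21.7 to 200.3 and Klrk1 from 114 to 840. Klrd1 ran from 99.5 to 753, Klrc1 from 91.6 to 670.1, Klre1 from 20.8 to 261, Klrg1 from 8.5 to 167 and Eomes from 22.1 to 105. These values were normalized over 52 libraries and are not on the scale of the 32 tumors above.

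The 5 libraries of that experiment labelled as combination in every field had Klrk1 values of 324, 459, 823, 499 and 841, Klrc1 values of 294, 305, 94.4, 367 and 540.2, and Ncr1 values of 24.3, 32.4, 18.9, 45.7 and 93.1. The third of these libraries stood apart, with 8716257 recovered reads where the others held 18028313 to 18789130, and its Klrg1 value of 246 rested on 65 reads while the other 4 lay between 34.8 and 84.4.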
